A study of Mus musculus with 118 samples.

Results

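The genes encoding the neural POU factors were the 4 Pou3f genes (Pou3f1, Pou3f2, Pou3f3 and Pou3f4) and the 3 Pou4f genes (Pou4f1, Pou4f2 and Pou4f3) of the mouse. They were taken by symbol and were 7 of the 26180 genes with a curated RefSeq transcript on a chromosome. The data were 3 lists of peaks from cChIP-seq (ChIP-seq calibrated against spiked-in human cells) for RING1B, SUZ12 and PCGF2 in untreated mouse embryonic stem cells (ESCs). The study holds 118 samples in 42 groups and asked what the catalytic activity of PRC1 contributes to the Polycomb system. The lists come from untreated cells only, so no effect of tamoxifen on these genes was measured here.

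PRC1CPM cells (clone 41, strain E14) carry Ring1a with the I50A/D53K substitutions, floxed Ring1b alleles (fl/fl) that tamoxifen switches from wild type to I53A/D56K, and ERT2-Cre at Rosa26. PRC1CKO cells (clone B9, strain E14) are Ring1a-/-, Ring1b fl/fl and carry the same ERT2-Cre. Each line is 1 clone of male ESCs grown in serum with leukaemia inhibitory factor. Untreated cells of both lines therefore already lack active RING1A, and all their PRC1 catalysis rests on RING1B. Human HEK293T cells, a kidney-derived line, served as spike-in. The lists draw on 3 RING1B, 3 SUZ12 and 3 PCGF2 samples of untreated PRC1CPM cells and 3 SUZ12 samples of untreated PRC1CKO cells. RING1B samples of PRC1CKO cells also entered the RING1B list and were not analysed here. The lists hold positions alone, without signal, read depth or replicates, so no error between replicates and no significance could be attached to any value. For the same reason the ESC label could not be checked against the expression of marker genes.

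Polycomb repressive complex 1 (PRC1), whose catalytic subunit is RING1A or RING1B, ubiquitylates a core histone, and PRC2, of which SUZ12 is a core subunit, methylates another. PCGF2 is a core part of canonical PRC1, the form that reads the PRC2 mark, although variant PRC1 complexes can also contain it. In ESCs both complexes are most enriched at CpG islands of genes with little transcription. RING1B also occupies promoters of more active genes, where PRC2 is low. POU factors bind DNA through a POU-specific domain joined to a homeodomain. Pou3f1 is known for its part in Schwann cell myelination, Pou3f2 and Pou3f3 for cortical neurons, and Pou3f4 for the inner ear. Pou4f1 is known from sensory neurons, Pou4f2 from retinal ganglion cells and Pou4f3 from the hair cells of the inner ear.

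The start sites of these genes differ widely in CpG content, and the sequences below are shown because the RING1B peaks described next all cover them. Each runs 5′ to 3′ over the 250 bases before the start site, on the strand of the gene, from RefSeq on GRCm38.p6, and capitals mark CpG dinucleotides. The 5 genes with an entry in the promoter table are Pou3f2 (chr4:22488367-22488616, minus strand), Pou3f3 (chr1:42695518-42695767, plus strand), Pou3f4 (chrX:110814129-110814378, plus strand), Pou4f1 (chr14:104468000-104468249, minus strand) and Pou4f2 (chr8:78436648-78436897, minus strand). Pou3f1 and Pou4f3 are without a sequence here.
Pou3f2: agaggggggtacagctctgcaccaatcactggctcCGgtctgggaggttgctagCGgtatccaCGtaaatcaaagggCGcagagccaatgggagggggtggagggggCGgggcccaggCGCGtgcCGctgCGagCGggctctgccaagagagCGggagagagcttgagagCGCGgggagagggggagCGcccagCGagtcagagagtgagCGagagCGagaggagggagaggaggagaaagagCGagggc
Pou3f3: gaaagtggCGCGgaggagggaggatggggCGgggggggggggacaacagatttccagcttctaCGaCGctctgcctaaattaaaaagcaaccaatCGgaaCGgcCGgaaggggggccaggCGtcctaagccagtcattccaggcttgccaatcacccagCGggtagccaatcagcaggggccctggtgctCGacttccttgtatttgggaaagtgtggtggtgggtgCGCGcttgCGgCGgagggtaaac
Pou3f4: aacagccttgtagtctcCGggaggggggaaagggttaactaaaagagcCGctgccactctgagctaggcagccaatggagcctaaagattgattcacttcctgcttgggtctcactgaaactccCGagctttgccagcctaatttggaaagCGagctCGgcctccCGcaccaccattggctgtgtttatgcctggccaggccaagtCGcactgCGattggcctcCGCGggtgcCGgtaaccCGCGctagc
Pou4f1: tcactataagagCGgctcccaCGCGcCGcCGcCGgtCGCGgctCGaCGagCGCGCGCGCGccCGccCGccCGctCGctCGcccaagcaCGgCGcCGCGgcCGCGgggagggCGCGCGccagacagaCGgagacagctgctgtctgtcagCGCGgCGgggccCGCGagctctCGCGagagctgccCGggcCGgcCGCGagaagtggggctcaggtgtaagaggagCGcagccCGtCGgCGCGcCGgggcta
Pou4f2: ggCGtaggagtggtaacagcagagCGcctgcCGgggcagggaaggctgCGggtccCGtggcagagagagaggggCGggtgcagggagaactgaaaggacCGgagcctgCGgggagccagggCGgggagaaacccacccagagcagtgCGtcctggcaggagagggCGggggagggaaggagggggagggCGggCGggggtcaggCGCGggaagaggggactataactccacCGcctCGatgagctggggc

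Pou4f1 stood apart among these 5 with 47 CpGs in 250 bases, more than 99.8% of the 32851 windows of the same length in the table, whose median was 6. Pou3f2 had 18, Pou4f2 17, Pou3f3 15 and Pou3f4 13, and all 5 lay above that median. The CCAAT box, CCAAT on either strand, is a common promoter element, and it was looked for after the sequences had been read. It occurred 2 times before Pou3f2 and 3 times each before Pou3f3 and Pou3f4, but 0 times before Pou4f1 and Pou4f2. Of all windows 33.8% held at least 1 such match, 10.1% at least 2 and 2.79% at least 3. In Pou3f3 the matches began 160, 103 and 84 bases before the start site. The octamer ATGCAAAT, the best-known POU recognition sequence, was found on neither strand of the 5 windows, as against 1.60% of all windows that held it.

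RING1B, SUZ12 and PCGF2 peaks were present at the promoters of all members. A promoter was the curated transcription start site (TSS) plus or minus 2500 bp, and 1 shared base pair counted as overlap. A RING1B peak lay at 7 of 7 members, as against 53.2% of all genes. A SUZ12 peak lay at 7 of 7 (all genes, 24.8%), a PCGF2 peak at 7 of 7 (all genes, 13.5%), and all 3 factors at 7 of 7 (all genes, 13.4%). At each member the peak of each factor contained the TSS base itself, so the calls do not turn on the width of the promoter window.

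The peaks were wide. In the RING1B list, with 18643 peaks of median width 1495 bp, the members' promoter peaks had a median of 13490 bp and ranged from 4598 bp at Pou3f4 to 34017 bp at Pou3f3. In the SUZ12 list (7438 peaks, median 2665.5 bp) they had a median of 13473 bp, from 4875 to 38647 bp. In the PCGF2 list (3680 peaks, median 2588.5 bp) the median was 12594 bp, from 3692 to 26570 bp. Genes with all 3 factors at the promoter, of which there were 3508, had median widths of 4917.5 bp for RING1B, 5394 bp for SUZ12 and 2914 bp for PCGF2. All members but Pou3f4, 6 of 7, exceeded the 95th percentile of RING1B widths, which was 6692.9 bp. For SUZ12 (95th percentile 10479.1 bp) 5 members did so and for PCGF2 (11638.2 bp) 4 did. Since the calling rules differ between the lists, widths of different factors are set side by side and not tested.

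**Figure D1:**
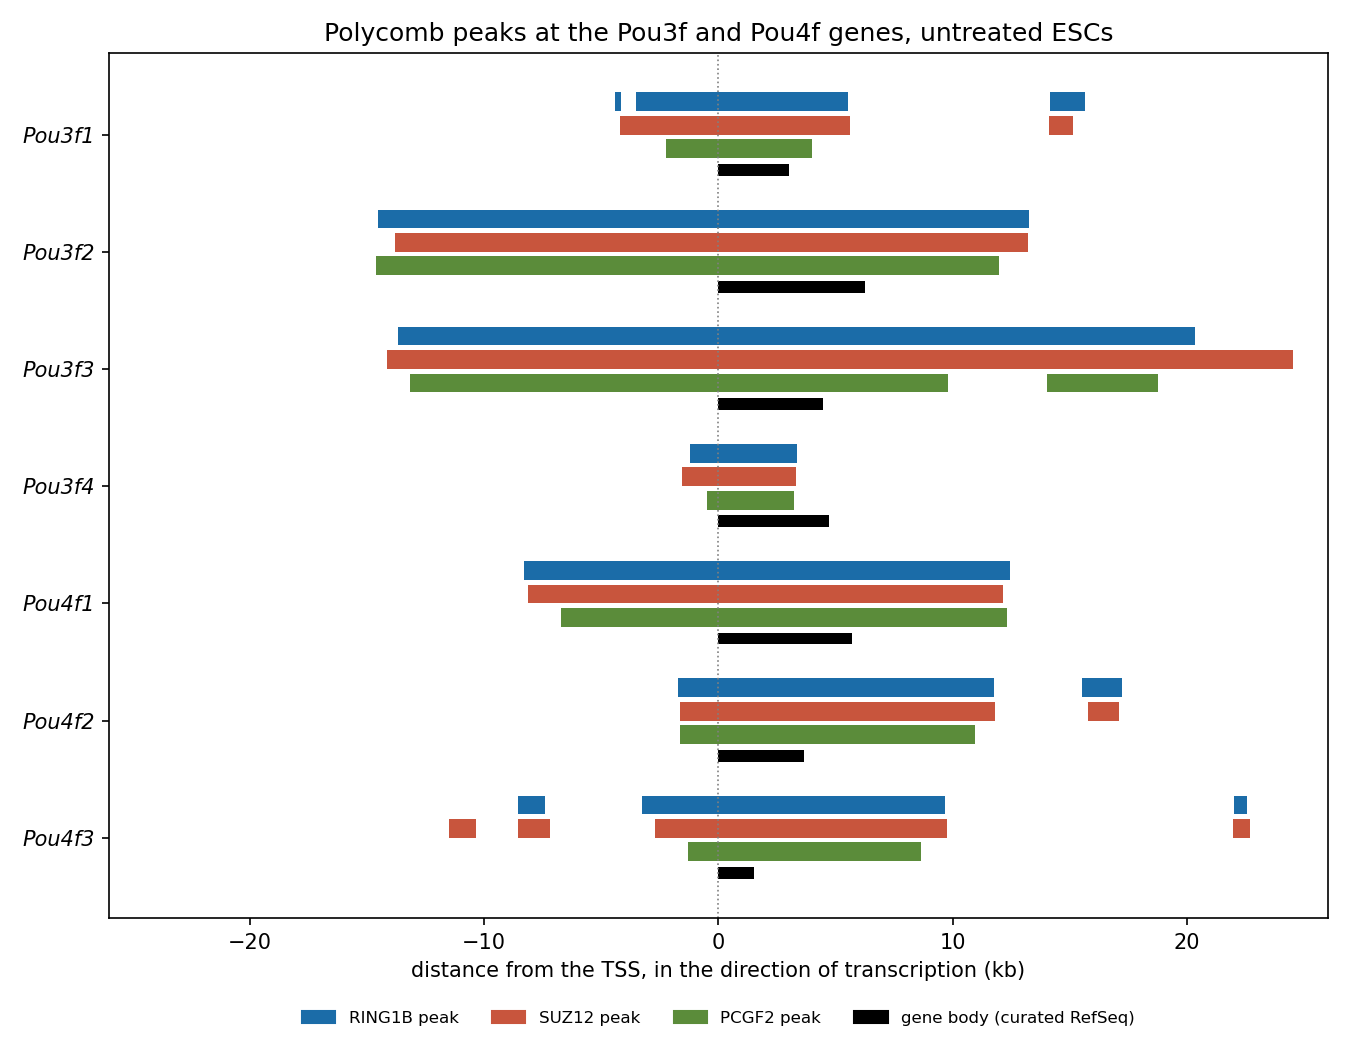
Peaks of RING1B (blue), SUZ12 (red) and PCGF2 (green) around the 7 genes, with the gene body in black, drawn to scale against the distance from the TSS in kb in the direction of transcription. Every promoter peak crosses the TSS at 0; Pou3f3 and Pou3f2 have the widest peaks and Pou3f4 the narrowest, and at Pou3f3 the PCGF2 track is broken by a gap.

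Pou3f3 lay within the widest domain. The gene (Gene ID 18993) has a single exon at chr1:42695768-42700210 on the plus strand of mm10, 4443 bp in all. Its RING1B peak, chr1:42682104-42716120, reached 13664 bp upstream and 20352 bp downstream of the TSS, and only 19 RING1B peaks of the list were wider. The SUZ12 peak, chr1:42681634-42720280, was 38647 bp wide, with 9 wider in its list. PCGF2 was split here. A peak of 22962 bp (chr1:42682597-42705558) covered the gene, and after a gap of 4236 bp a second of 4758 bp (chr1:42709795-42714552) lay at the promoter of the noncoding gene Pantr2. The RING1B peak held curated start sites of 5 genes, the others being Pantr1 and Pantr2, whose names mark them as noncoding transcripts next to Pou3f3, with 2900092D14Rik and Gm46091. Positions alone cannot assign this domain to Pou3f3 rather than to its noncoding neighbours. The next RING1B peak was 134.6 kb away.

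Pou3f2 followed with a RING1B peak of 27797 bp at chr4:22475102-22502898. The gene (Gene ID 18992), a single exon of 6272 bp at chr4:22482095-22488366 on the minus strand, had its TSS near the middle of the peak, with 14532 bp of peak upstream and 13264 bp downstream of the TSS. SUZ12 (27026 bp, chr4:22475142-22502167) and PCGF2 (26570 bp, chr4:22476403-22502972) had nearly the same extent. Only 35 RING1B, 38 SUZ12 and 19 PCGF2 peaks of the whole lists were wider. The noncoding gene Gm30731 starts 2.182 kb away inside the same RING1B peak. The nearest other RING1B peak lay 116.8 kb away and the nearest other SUZ12 peak 540.7 kb away, so this was an isolated domain.

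Pou3f1 and Pou3f4 had narrower peaks. Pou3f1 (Gene ID 18991, 1 exon of 3010 bp, chr4:124657646-124660655, plus strand) had a RING1B peak of 9052 bp at chr4:124654112-124663163, a SUZ12 peak of 9816 bp at chr4:124653454-124663269 and a PCGF2 peak of 6242 bp at chr4:124655407-124661648. Gm2164, a noncoding gene on the other strand, starts 159 bp from the Pou3f1 TSS, so their promoter peaks cannot be told apart. Pou3f4 (Gene ID 18994, 1 exon of 4730 bp, chrX:110814379-110819108, plus strand) had 4598 bp of RING1B (chrX:110813142-110817739), 4875 bp of SUZ12 (chrX:110812824-110817698) and 3692 bp of PCGF2 (chrX:110813891-110817582). The RING1B peak was wider than 89.3% of its list and the PCGF2 peak than 70.0% of its own. In the SUZ12 list 1882 peaks were wider than that of Pou3f4, and its SUZ12 width fell within the list's middle 50%, between 1313 and 4924 bp. Pou3f4 is also the most solitary member, 291.3 kb from the nearest gene with a curated transcript, Cylc1, and 644.8 kb from the nearest other RING1B peak.

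Among the Pou4f genes Pou4f1 had the widest peaks. The gene (Gene ID 18996) has 3 exons over 5680 bp at chr14:104462320-104467999 on the minus strand. Its RING1B peak was 20748 bp (chr14:104455575-104476322), the SUZ12 peak 20292 bp (chr14:104455846-104476137) and the PCGF2 peak 19022 bp (chr14:104455686-104474707). The downstream edges of all 3 peaks fell in an intron of the noncoding gene D130079A08Rik, whose start site lay inside the RING1B peak 8.663 kb from that of Pou4f1. Only 90 RING1B peaks, 108 SUZ12 peaks and 68 PCGF2 peaks were wider.

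Pou4f2 and Pou4f3 resembled each other in extent. Pou4f2 (Gene ID 18997, 2 exons, 3639 bp, chr8:78433009-78436647, minus strand) had 13490 bp of RING1B (chr8:78424886-78438375), 13473 bp of SUZ12 (chr8:78424830-78438302) and 12594 bp of PCGF2 (chr8:78425710-78438303). Pou4f3 (Gene ID 18998, 2 exons, 1497 bp, chr18:42394597-42396093, plus strand) had 12939 bp of RING1B (chr18:42391323-42404261), 12464 bp of SUZ12 (chr18:42391907-42404370) and 9942 bp of PCGF2 (chr18:42393300-42403241). At both genes the RING1B peak lay mostly downstream, reaching 1728 bp upstream and 11761 bp downstream of the TSS at Pou4f2 and 3274 and 9664 bp at Pou4f3. Neither RING1B peak held the curated start site of another gene, and the nearest genes with a curated transcript, Ttc29 and Rbm27, were 38.7 and 53.1 kb away. The predicted gene Gm31438 also starts inside all 3 peaks at Pou4f3. With RING1B peaks less than 5 kb apart joined, the domain would be 18939 bp at Pou4f2 and 18227 bp at Pou4f3, and the SUZ12 peak at Pou4f3 would be 21286 bp.

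**Figure D2:**
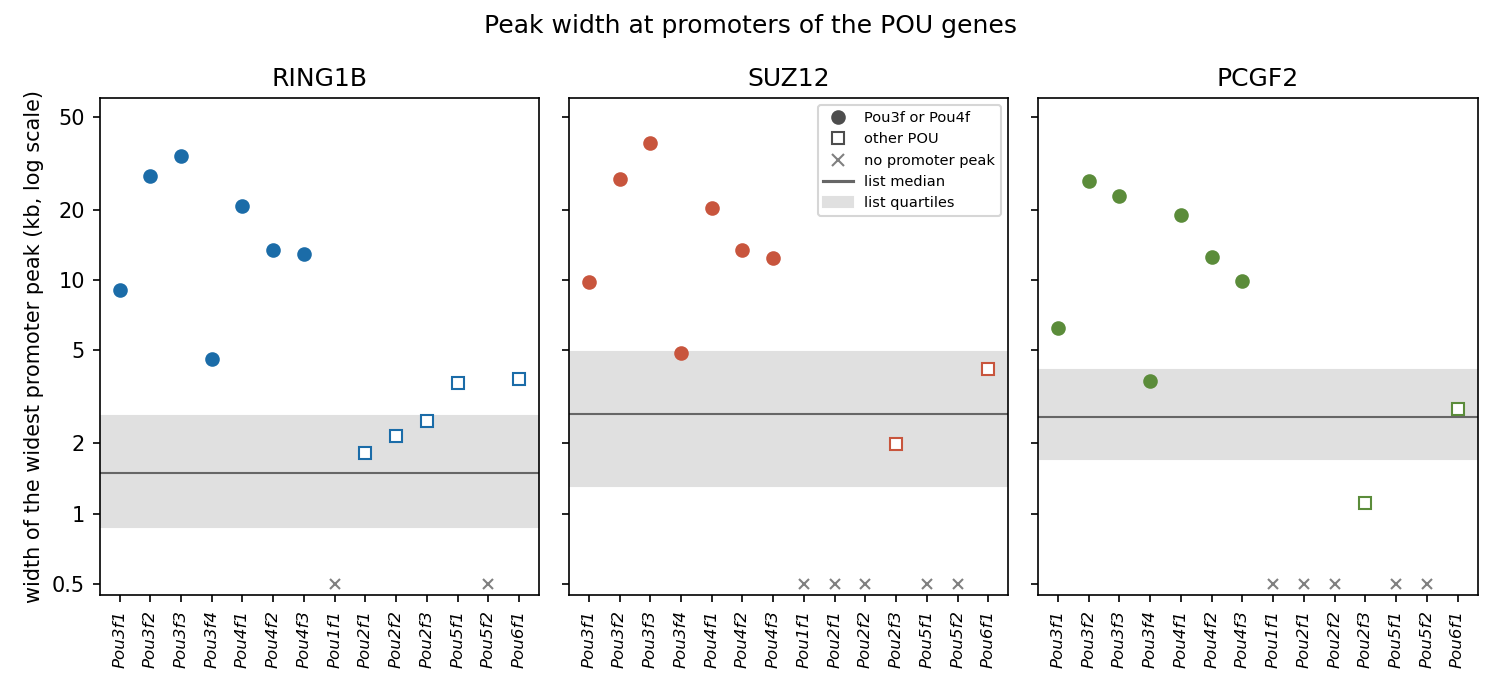
Width of the widest promoter peak (kb, log scale) of RING1B, SUZ12 and PCGF2 at each of the 14 POU genes, against the median (line) and quartiles (grey band) of all peaks in that list; crosses at the bottom mark genes without a promoter peak. The 7 Pou3f and Pou4f genes (filled) span 4.598 to 34.017 kb for RING1B and the 5 other POU genes with a peak (open) span 1.824 to 3.771 kb.

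In 6 of 7 members a single RING1B peak covered the whole annotated gene body, as against 3.57% of all genes. The exception was Pou3f4, of whose body RING1B covered 71.1%, SUZ12 70.2% and PCGF2 67.7%. There the RING1B peak ended 1369 bp before the 3′ end of the gene, in the untranslated part of its only exon. At the other 6 genes RING1B ran past the 3′ end, by 2508 bp at Pou3f1, 6745 bp at Pou4f1, 6993 bp at Pou3f2, 8123 bp at Pou4f2, 8168 bp at Pou4f3 and 15910 bp at Pou3f3. Gene length moved with this count. The members' bodies had a median of 4443 bp and those of all genes 13453 bp. Of the 8728 genes no longer than Pou3f2, the longest member, 9.66% lay within 1 RING1B peak. Of the 796 such genes that also had all 3 factors at the promoter, 63.6% did.

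RING1B reached farther downstream than upstream of the TSS at 6 of 7 members, Pou3f2 being the exception. The upstream share of the peak was 12.8% at Pou4f2, 25.3% at Pou4f3, 26.9% at Pou3f4, 39.0% at Pou3f1, 40.1% at Pou4f1, 40.2% at Pou3f3 and 52.3% at Pou3f2. The median over 2943 RING1B peaks at promoters with all 3 factors was 38.9%, so downstream reach is common among such peaks.

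SUZ12 followed RING1B closely. The Jaccard index (bases shared by both peaks as a percentage of bases in either) was lowest at Pou3f3, at 88.0%, and highest at Pou4f2, at 99.0%, with a median of 94.7%. Over the 2943 peaks the median was 82.8%, with quartiles of 71.2 and 90.7%. For the same distance between edges this index rises with peak width. The members' RING1B median was 13490 bp, as against 4917.5 bp at genes with all 3 factors. Edge distances and edge counts over the 2943 peaks were not computed, so closer alignment cannot be told apart from greater width. SUZ12 edges lay within 1 kb of the RING1B edge in 13 of 14 cases, and 7 of the 14 lay inside the RING1B peak. The exception was the downstream edge at Pou3f3, where SUZ12 ran 4160 bp farther. The SUZ12 peak was the wider at 3 of 7 members (Pou3f1, Pou3f3 and Pou3f4), as against 68.1% of the 2943 peaks. At Pou4f2 their widths differed by only 17 bp.

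PCGF2 lay inside. Of its 14 edges 13 fell within the RING1B peak, and at Pou3f2 alone the upstream edge passed that of RING1B, by 74 bp. The share of such edges over the 2943 peaks was not computed. PCGF2 peaks there were mostly narrower too, with a median of 63.0% of the RING1B width and an upper quartile of 77.0%. At Pou2f3 and Pou6f1, the other POU genes with all 3 factors, PCGF2 also lay inside on both sides. At the members the distance from the PCGF2 to the RING1B edge had a median of 922 bp, as against 228 bp for SUZ12. At Pou4f3 PCGF2 stopped 1977 bp short upstream, at Pou4f1 1615 bp, and at Pou3f1 it stopped 1295 bp short upstream and 1515 bp downstream. The largest distance was 10562 bp, downstream at Pou3f3, where the second PCGF2 peak lay beyond the gap. The Jaccard index of PCGF2 with RING1B had a median of 80.3%, as against 62.6% over the 2943 peaks. It ran from 67.5% at Pou3f3 to 95.1% at Pou3f2. Only the widest promoter peak of each factor entered it, so the second PCGF2 peak at Pou3f3 was left out. Peak width bears on this index in the same way as for SUZ12.

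**Figure D3:**
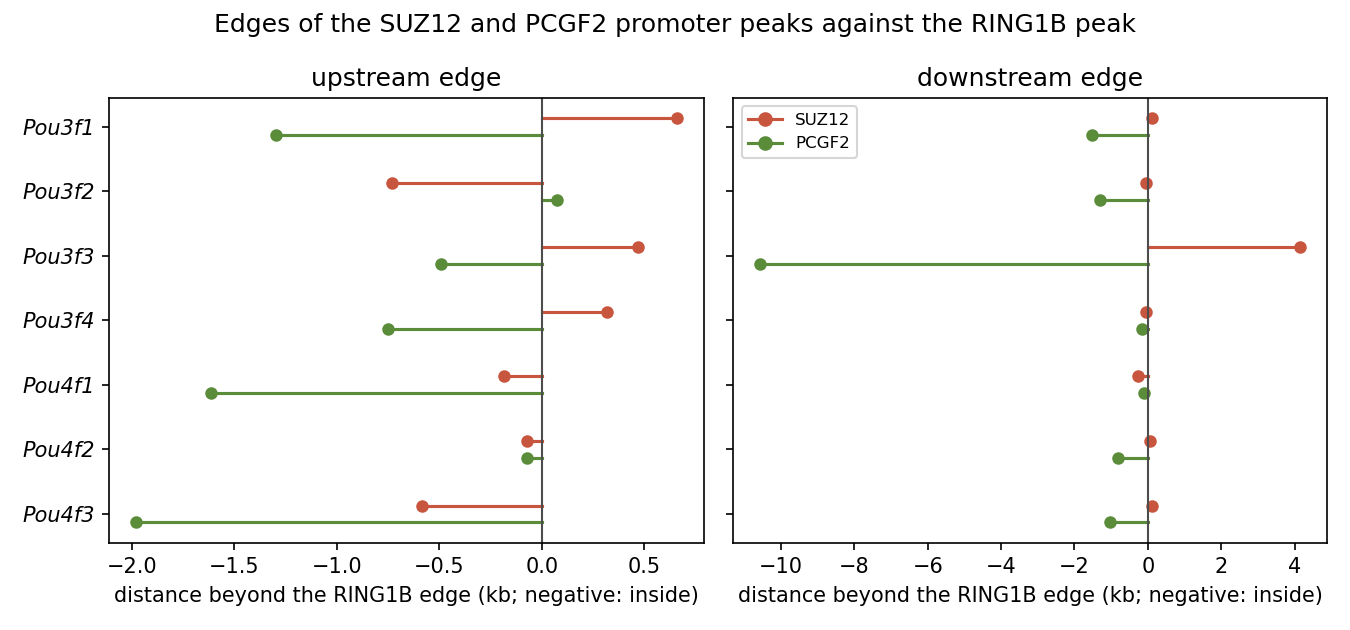
Distance in kb by which the SUZ12 (red) and PCGF2 (green) promoter peaks pass the RING1B peak at its upstream (left) and downstream (right) edge, with negative values inside the RING1B peak; the panels have different scales. PCGF2 is inside at 13 of 14 edges, a count without a share over other promoter peaks. The downstream edges at Pou3f3 stand apart for both factors.

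All 3 factors together covered a median of 12593 bp at the members, as against 2732 bp over the 2943 peaks (quartiles 1804 and 4289 bp). The shared length was 27720 bp at Pou3f3, both PCGF2 peaks included, 25765 bp at Pou3f2, 18862 bp at Pou4f1, 12593 bp at Pou4f2, 9942 bp at Pou4f3, 6242 bp at Pou3f1 and 3692 bp at Pou3f4. As a share of the RING1B peak this was 69.0% at Pou3f1, 76.8% at Pou4f3, 80.3% at Pou3f4, 81.5% at Pou3f3, 90.9% at Pou4f1, 92.7% at Pou3f2 and 93.4% at Pou4f2. The upper quartile of the 2943 peaks was 76.0%, and all members but Pou3f1 exceeded it, Pou4f3 narrowly. For the same distance between edges this share, too, rises with peak width.

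Smaller peaks lay around 3 of the domains, within 50 kb of the gene. Pou3f1 had a 283 bp RING1B peak (chr4:124653221-124653503) only 608 bp from its domain, overlapping the upstream end of the promoter SUZ12 peak. It also had a RING1B peak of 1500 bp and a SUZ12 peak of 1000 bp 14.2 and 14.1 kb downstream of the TSS (chr4:124671806-124673305 for RING1B), and others farther off, among them peaks at the genes Utp11 and Fhl3. Pou4f2 had a RING1B peak of 1673 bp with a SUZ12 peak of 1311 bp (chr8:78419437-78421109 for RING1B), 3776 bp past its domain. Around Pou4f3 there were 2 RING1B peaks of 1136 and 556 bp and 3 SUZ12 peaks of 1176, 1345 and 722 bp. None of these smaller peaks had a PCGF2 peak over it, whereas Pou3f2, Pou3f4 and Pou4f1 had no further peak of any list within that distance.

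CpG content is a property of the DNA that the list of genes does not use. CpG observed/expected, the number of CpGs relative to that given by the C and G content, was computed over the TSS plus or minus 2500 bp. It was 0.849 at Pou4f1, 0.826 at Pou3f3, 0.790 at Pou3f1, 0.662 at Pou3f2, 0.636 at Pou4f2, 0.517 at Pou4f3 and 0.506 at Pou3f4. Their median was 0.662, as against 0.327 over all promoters, 0.480 over promoters with all 3 factors, 0.423 over those with RING1B alone and 0.195 over those with none. The difference from the other RING1B-bound classes depended on the window. At plus or minus 1000 bp the medians were 0.704 for the members, 0.636 with all 3 factors and 0.624 with RING1B alone. At plus or minus 500 bp they were 0.725, 0.713 and 0.743, so that the members lay below the RING1B-alone class, and over all promoters the median was 0.512. Pou4f1 exceeded 99.5% of promoters with all 3 factors, while Pou3f4 and Pou4f3 were near the middle of that class, above 57.4 and 60.5% of it. Over the same 5 kb windows the octamer ATGCAAAT occurred 1 time each at Pou3f4 and Pou4f3 and at 0 of the other 5 members, while 23.3% of all promoters held it.

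The RING1B peaks were richer in CpG than the DNA next to them. CpGs per 100 bp in the peak were 4.74 at Pou3f1, 3.35 at Pou3f4, 3.25 at Pou4f1, 2.78 at Pou3f3, 2.66 at Pou4f3, 2.52 at Pou4f2 and 2.46 at Pou3f2. In the 2.5 kb on either side the values ran from 0.48 to 1.4 upstream and from 0.4 to 1.76 downstream, and both flanks were below the peak at all members. The same held at the 5 other POU genes with a RING1B promoter peak. Their peaks ran from 1.90 at Pou5f1 (flanks 1.04 and 1.6) to 11.3 at Pou2f1 (1.04 and 1.8). Within the peaks, the part under all 3 factors held more CpGs than the rest of the RING1B peak. At Pou3f1 the values were 6.33 and 1.21 per 100 bp, at Pou4f1 3.53 and 0.477, and at Pou3f2 2.58 and 0.837, and the order was the same at the other 4 genes. It was also the same at Pou2f3 (5.22 and 1.22) and Pou6f1 (5.31 and 1.55). At all of these genes the part under all 3 factors contained the TSS. Its higher CpG content therefore cannot be told apart from its place in the peak. Shares over all RING1B peaks were not computed for either comparison.

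The CpG-dense DNA in the wider peaks fell into several separate stretches. In bins of 500 bp up to 26 kb from the TSS, a bin with at least 2 CpGs per 100 bp was taken as dense, a limit chosen after the profiles had been seen. Dense bins made up 44.7% of the 246 bins inside the RING1B peaks and 9.96% of the 482 bins outside. Such shares were not computed for RING1B peaks at other promoters. The dense bins fell into 6 runs inside the peak of Pou3f3, 5 at Pou3f2, and 3 each at Pou4f1, Pou4f2 and Pou4f3. These peaks held 68, 56, 42, 27 and 26 bins, and those of Pou3f1 and Pou3f4 held 18 and 9. A wider peak leaves room for more runs, so the run counts are not independent of peak width. At Pou3f1 and Pou3f4 there were 2 runs, but these were little more than 1 stretch. A lone bin just above the limit made the second at Pou3f1, and a single bin below it split the stretch at Pou3f4. Single bins also shaped the counts at wider peaks. Lone dense bins of 2.4 at Pou3f3, 2.8 at Pou3f2 and 2.4 at Pou4f2 each counted as a run. A single bin below the limit parted neighbouring runs at these genes and at Pou4f3. With such splits bridged, their counts would be lower. The densest bin started at the TSS at Pou3f1, Pou3f2, Pou3f4 and Pou4f2, 500 bp downstream at Pou4f3, 1000 bp at Pou3f3 and 1500 bp at Pou4f1, where it held 17 CpGs per 100 bp. Pou3f1 differed from the rest in its surroundings, where 24 of 86 bins outside the peak were dense, as against 0 of 95 at Pou3f4.

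**Figure D4:**
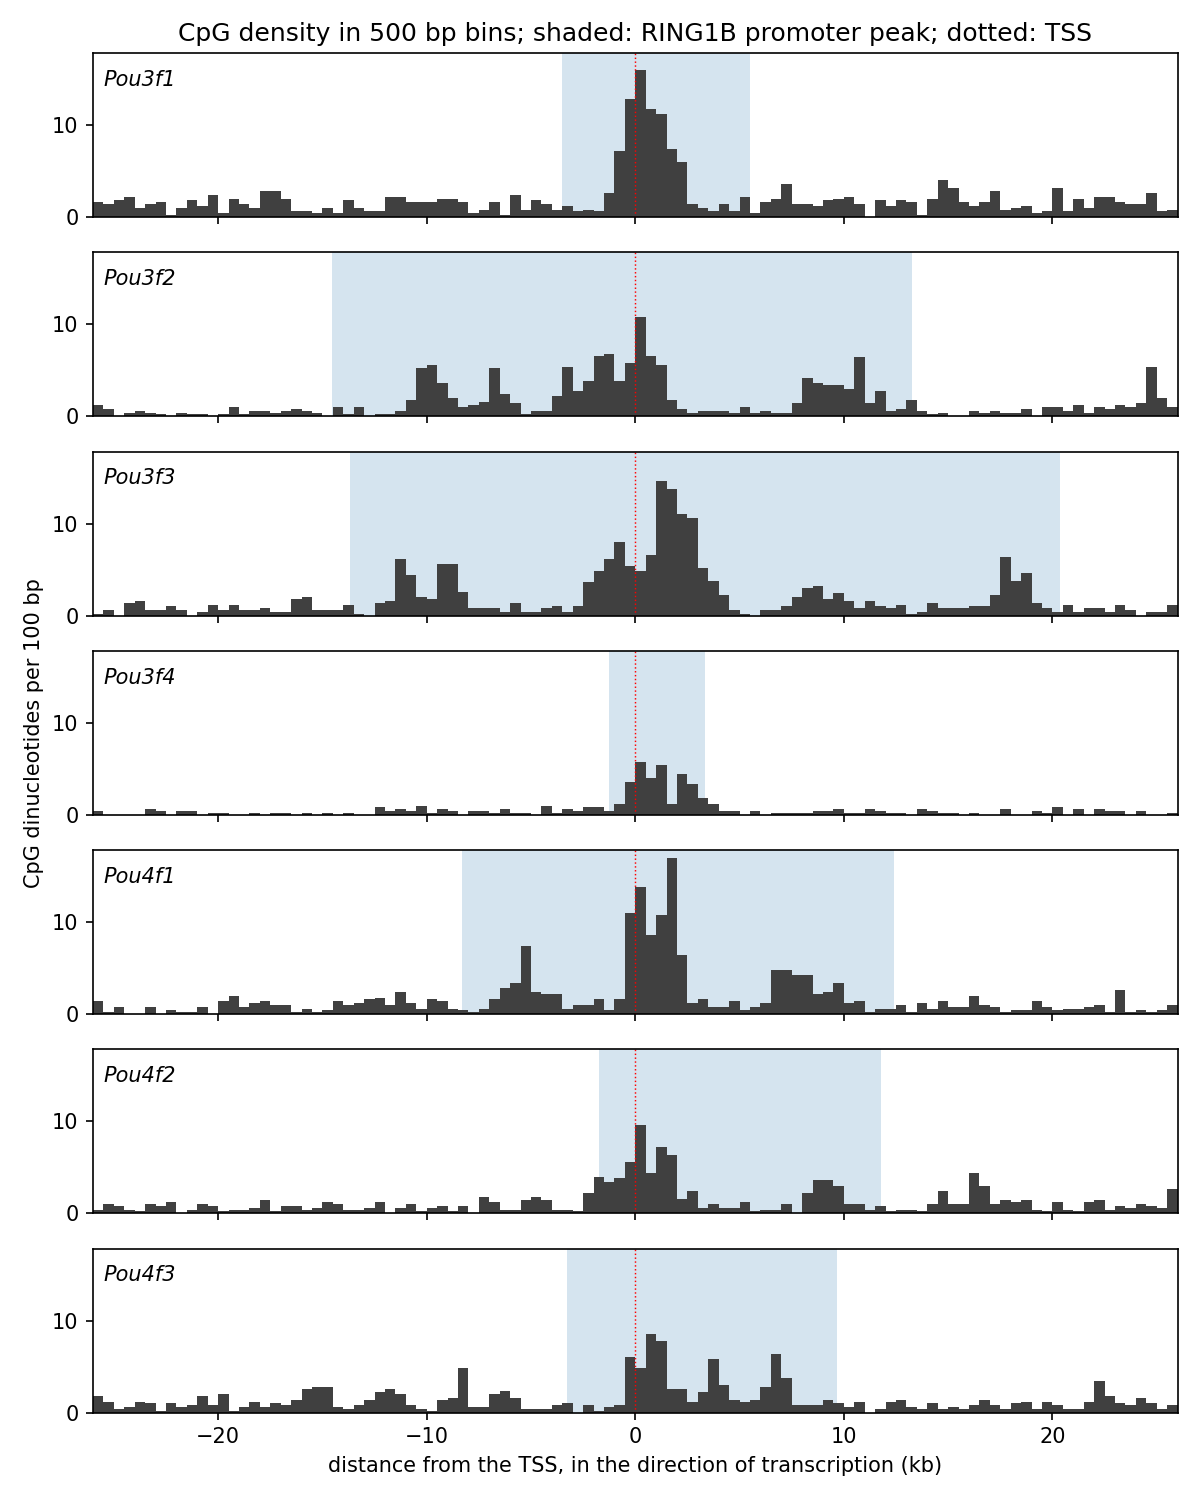
CpG dinucleotides per 100 bp in 500 bp bins against the distance from the TSS in kb in the direction of transcription, one panel per gene, with the RING1B promoter peak shaded and the TSS dotted. Pou3f2 and Pou3f3, with the widest peaks, have 5 and 6 dense runs in 56 and 68 bins inside the shading. Some of these runs are parted by a single bin. Pou3f4, with 9 bins inside, has a short CpG-rich stretch and 0 dense bins outside the shading.

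The other 7 POU genes analysed had fewer and narrower peaks. A RING1B promoter peak was present at 5 of them, SUZ12 at 2, PCGF2 at 2 and all 3 factors at 2, and 0 of the 7 gene bodies lay within a RING1B peak. Pou5f1, which encodes the pluripotency factor OCT4, had RING1B peaks of 3631 bp (chr17:35503803-35507433) and 797 bp without SUZ12 or PCGF2. Pou2f1, a broadly expressed factor, had RING1B alone over 1824 bp (chr1:166001771-166003594). Pou2f2, known from B cells, had RING1B alone in its promoter window over 2149 bp (chr7:25132635-25134783), but the peak stopped 0.175 kb short of the curated TSS. Had the TSS base been required to lie in the peak, 4 of these genes would count in place of 5. Pou2f3, known from tuft cells, had RING1B over 2504 bp, SUZ12 over 1988 bp and PCGF2 over 1112 bp. Pou6f1 had 3771, 4177 and 2806 bp for the same factors. Pou1f1, the pituitary factor, and Pou5f2 had none of the 3, and their nearest RING1B peaks were 39.1 and 137.4 kb from a curated TSS. The widest of these RING1B peaks, at Pou6f1, was thus narrower than the narrowest of the members, at Pou3f4.

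The call at Pou2f2 depended on the annotation. Predicted RefSeq transcripts place further start sites upstream, and peaks of all 3 factors lay within 2500 bp of 22 of them and contained 19. The peaks were 7821 bp for RING1B (chr7:25175278-25183098), 7824 bp for SUZ12 and 5387 bp for PCGF2. With these starts counted, Pou2f2 would be the third of the 7 with all 3 factors, and its RING1B peak would be wider than that of Pou3f4.

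Among these 7 genes CpG content and the presence of the factors did not always go together. Pou2f1 had a CpG observed/expected of 0.773, higher than 4 of the members, but a RING1B peak of only 1824 bp and no SUZ12 or PCGF2. Pou6f1 had 0.506, the same to 3 decimals as Pou3f4, and their RING1B peaks were 3771 and 4598 bp wide. Pou5f1, at 0.246, and Pou2f3, at 0.292, lay below the median of all promoters. Pou2f2 had 0.391, Pou1f1 0.270 and Pou5f2 0.253.

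**Figure D5:**
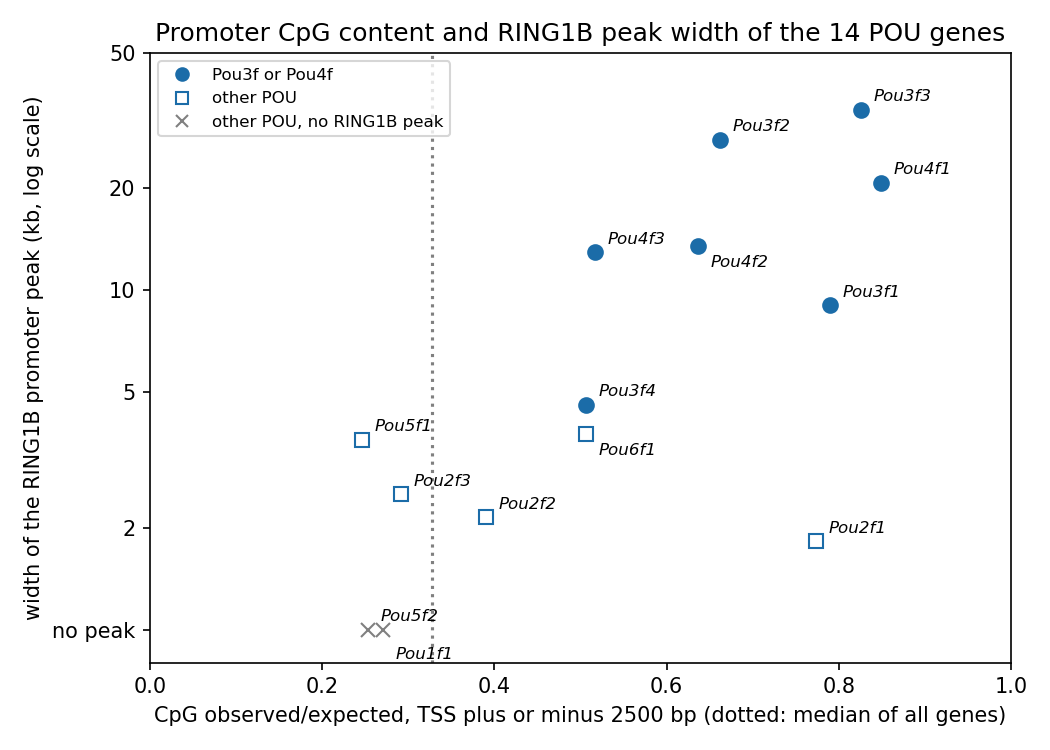
CpG observed/expected of the promoter (TSS plus or minus 2500 bp) against the width of the RING1B promoter peak (kb, log scale) for the 14 POU genes; the dotted line is the median of all genes, and crosses at the bottom have no RING1B peak. The 7 Pou3f and Pou4f genes all lie to the right of the line, and Pou2f1 lies far to the right with a peak of 1.824 kb.

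Wide domains were not particular to the Pou3f and Pou4f genes. Of 12 LIM homeobox genes, many of which act in neural development, 12 had all 3 factors at the promoter, with median widths of 18905 bp for RING1B, 20703 bp for SUZ12 and 16009.5 bp for PCGF2. Of 11 Sox genes of groups B, E and F, 10 had all 3, with medians of 10552, 11639.5 and 10087.5 bp. The POU members' RING1B median of 13490 bp lay between these lists. A RING1B peak covered the whole body at 5 of the 12 LIM homeobox genes and 8 of the 11 Sox genes, as against 6 of 7 members. This count moves with gene length, and body lengths were not compared between these lists.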

How the data were processed

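The peak lists were made by the authors. Per the study's methods, paired-end reads were aligned with Bowtie 2 to mm10 joined to hg19, duplicates were removed with Sambamba, broad peaks were called with MACS2 against Input, and blacklisted regions were dropped. RING1B and SUZ12 peaks were called on merged replicates and kept where both untreated lines had them. RING1B peaks that did not lose signal when PRC1CKO cells received tamoxifen were removed. PCGF2 peaks were called per replicate of PRC1CPM cells and kept where all replicates had them. These rules can change both number and width of peaks. The deposited values are positions in bp, with no other unit. They hold no read depth, and library depths were not used here.

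Here, peaks were intersected with RefSeq transcripts of GRCm38.p6 (equivalent to mm10), with coordinates counted from 1. Peaks past the end of a chromosome numbered 0. The widest promoter peak of each factor was used. Scripts ran in Python 3.11.15 with pandas 2.3.3 and pysam 0.24.0, and overlaps were tested on simulated data. The members, the lists of other POU, LIM homeobox and Sox genes and the measures were chosen with earlier results of these data known, so no test was run. The 14 POU genes analysed were named, 1 planned item is not reported here, and the other lists were given as counts and medians. Alternatives changed the promoter window, overlap, annotation, peak merging, smallest peak, containment and CpG window.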

Additional observations from a re-analysis of the deposited data

How the results depend on the processing

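The 14 results were recomputed under 17 settings, besides leaving out each gene in turn, giving 168 alternative values. Of these, 166 stayed within 1.5 times the reported count or within 1 SD of the members for a median. These bounds were wide and make the 166 a weak check. For the RING1B median of 13490 bp, 1 SD of the members was 10520.6 bp, and a count that went from 2 to 3 also stayed within. All 3 factors remained at 7 of 7 members and the body of 6 lay within a RING1B peak under every setting tried for them. The median CpG observed/expected of 0.662 fell to 0.475 when computed over the whole RING1B peak. GC content in its place gave a median of 56.7%, as against 47.2% for all promoters and 52.0% for those with all 3 factors, a change of scale by construction. Leaving out 1 gene at a time gave medians of 13214.5 to 17119 bp for RING1B, 12968.5 to 16882.5 bp for SUZ12, 11268 to 15808 bp for PCGF2, 11267.5 to 15727.5 bp for the length under all 3 and 0.649 to 0.726 for CpG observed/expected. Joining peaks within 5 kb raised the RING1B median to 18939 bp and the SUZ12 median to 20292 bp, with 18739 bp for SUZ12 at Pou4f2, 21286 bp for SUZ12 at Pou4f3, 18227 bp for RING1B at Pou4f3, 9943 bp for RING1B at Pou3f1 and 31956 bp for PCGF2 at Pou3f3. Members with the wider SUZ12 peak fell from 3 to 2 when peaks within 1 kb were joined. With predicted transcripts, other POU genes with SUZ12 or PCGF2 rose from 2 to 3. No paired analysis was possible because no result came from a test and replicates were pooled in the lists. Without read depth in the lists, a missing peak shows only that none was called.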
